A study of Mus musculus with 9 samples.

Results

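The genes described here encode ion transport and cAMP pathway proteins that have been linked to sperm motility and capacitation: Adcy10, Slc9c1, Atp1a4, Atp2b4, Kcnu1, Lrrc52, Hvcn1, Prkaca and Prkar2a. They were chosen by symbol among the 21877 rows of the deposited tables that carry an NCBI gene identifier, and all 9 were found. RNA came from germ cells of wild-type (WT) mouse testis at 3 stages: pachytene spermatocytes (PAC), which are in meiotic prophase, round spermatids (RS), which are haploid, and elongating spermatids (ES), whose nucleus condenses as the tail is built. No treatment or transgene is given for any group, and how the cells were isolated, how many animals gave each library and the age of the mice are not stated in the labels or design text. Each stage had 3 libraries, called biological replicates by the submitters. Nothing in the labels says that libraries came from separate animals, so p-values measure the spread between these libraries only.

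A sperm cell swims and becomes able to fertilise through a chain of ion fluxes and cAMP. Bicarbonate activates the soluble adenylyl cyclase encoded by Adcy10, cAMP releases the catalytic subunit of protein kinase A (PKA, Prkaca) from its regulatory subunit (Prkar2a), and the kinase phosphorylates flagellar proteins. The sperm-specific sodium-proton exchanger Slc9c1 raises the pH inside the cell and is physically linked to the cyclase, Atp1a4 is the sperm form of the sodium pump, Atp2b4 exports calcium, Kcnu1 (SLO3) with its partner Lrrc52 is the alkalinisation-activated potassium channel that sets the membrane potential, and Hvcn1 is a voltage-gated proton channel.

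Library totals ran from 22910156 to 33801617 counts. The labels were checked against marker genes. Summed over 8 genes each, markers of pachytene spermatocytes were highest in PAC (1873 to 1971 CPM, counts scaled to a common library size with TMM factors, against 753 to 789 in RS and 595 to 750 in ES). Round spermatid markers were highest in RS (1858 to 2079, against 580 to 735 in PAC and 971 to 1242 in ES), and elongating spermatid markers in ES (42155 to 71556, against 2134 to 2945 in PAC and 15352 to 17491 in RS). Not every marker followed its sum. The pachytene marker Ccna1 (means of 305 CPM in PAC and 337 in RS) and the round spermatid marker Acr (67.8 and 64.9) overlapped between PAC and RS. The round spermatid marker Tssk1 overlapped between RS and ES (575 and 444). Markers of other testis cells were present as well. The 10 Sertoli cell genes summed to 37.5 to 76.9 CPM in PAC, 7.18 to 8.50 in RS, where Amh and Fshr had no counts, and 209 to 244 in ES. The 7 Leydig cell genes summed to 88.5 to 122 CPM in PAC, 1.86 to 2.19 in RS, where Lhcgr had no counts, and 18.4 to 24.3 in ES. The 9 macrophage and blood genes summed to 5.96 to 7.53 CPM in PAC, 17.9 to 21.4 in RS and 138 to 220 in ES. The globin genes Hbb-bs and Hba-a1 were the largest of them in ES (means of 85.3 and 48.9 CPM), while Cd68 and Ptprc overlapped between PAC and ES. The 6 peritubular and vascular genes summed to 4.82 to 6.52 CPM in PAC, where Col1a1 had no counts, 12.8 to 21.6 in RS and 20.3 to 23.7 in ES. Their part in the results below was not tested. In bulk RNA fewer cells of a type and less RNA per cell cannot be told apart.

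The 9 genes did not move together. Adcy10, Atp1a4 and Prkar2a rose at both steps, from PAC to RS and from RS to ES. Lrrc52 rose from PAC to RS and fell again in ES, Kcnu1 rose from PAC to RS, Slc9c1 fell in ES, and Atp2b4 was highest in PAC. Prkaca passed the test only between ES and PAC, where it was lower. Hvcn1 had at most 10 counts in any library and was not tested. Of the 8 genes with enough counts, 5 rose and 1 fell in RS against PAC, where 38.2% of the 26030 features tested rose and 34.2% fell. In ES against RS 3 rose and 2 fell, against 24.5% and 22.1% of all features. In ES against PAC 4 rose and 3 fell, against 30.6% and 33.7%. The same shares stand behind the counts of related genes given further on. The median log2 fold change of the 8 genes was 0.95 in RS against PAC, 0.17 in ES against RS and 0.58 in ES against PAC, beside 0.11, 0.05 and -0.09 over all features and -0.46, 0.18 and -0.39 over the protein-coding genes tested. The 3 comparisons share libraries, so their values are given side by side only. The count of 3 lower genes in ES against PAC was 1 when PAC replicate 3 or either of ES replicates 1 and 2 was left out, and the count of 1 lower gene in RS against PAC was 2 without ES replicate 1.

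**Figure D1:**
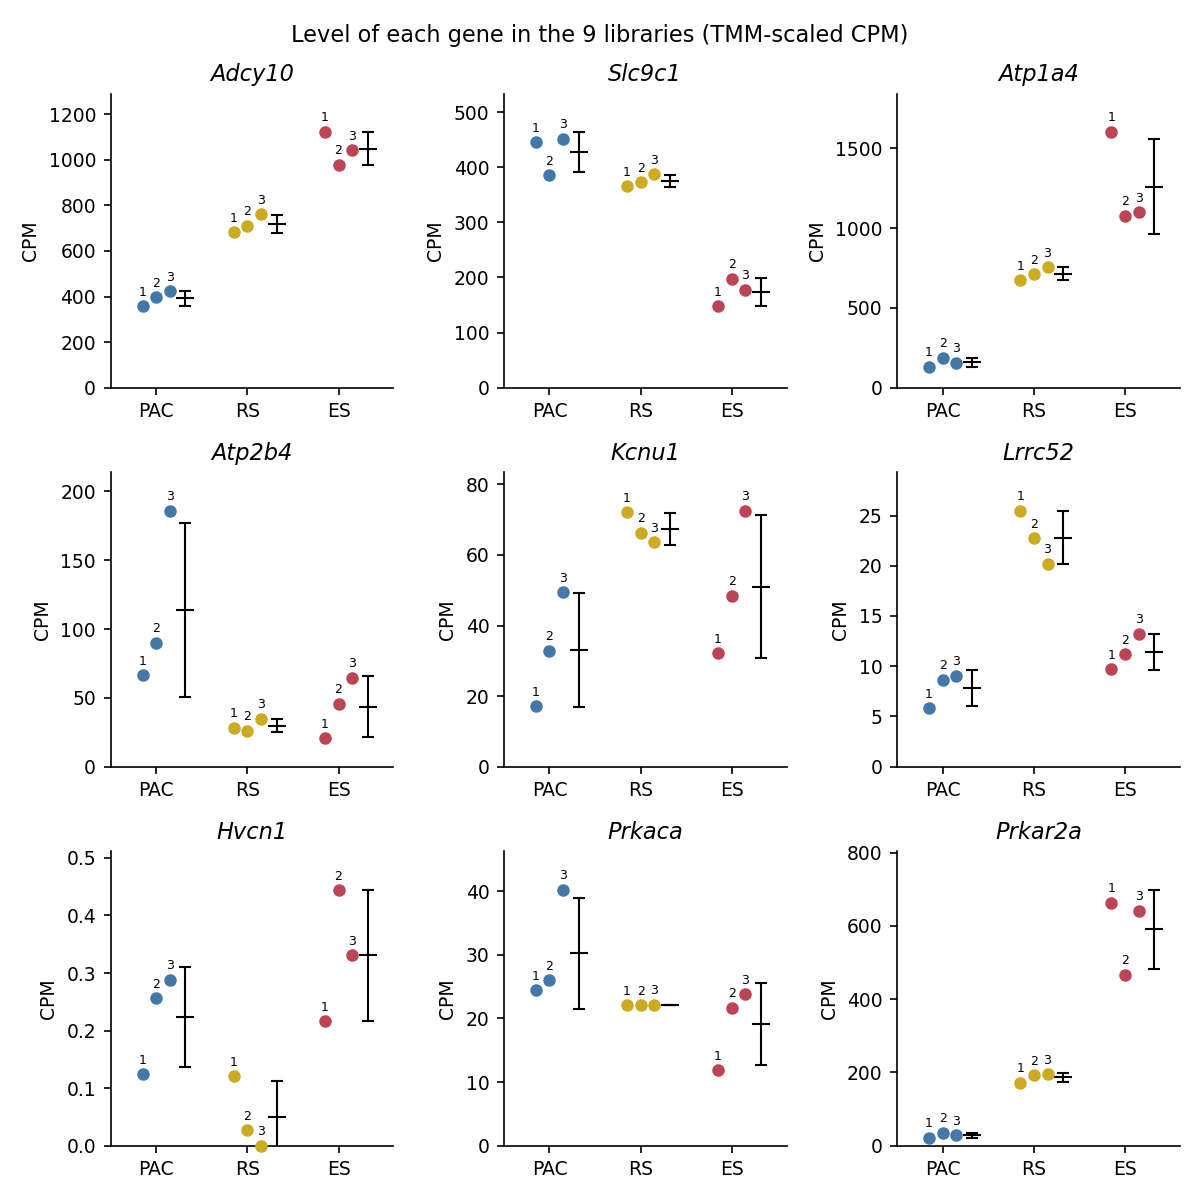
Level of each of the 9 genes (vertical axis, TMM-scaled CPM, starting at 0 and scaled per gene) in PAC, RS and ES. Points are libraries with their replicate number, and the bar beside them is the mean ± SD of 3. Adcy10, Atp1a4 and Prkar2a step upward with no overlap between stages, whereas Hvcn1 stays below 0.5 CPM.

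Adcy10, which makes cAMP in response to bicarbonate and calcium, is on chromosome 1 (165483518 to 165576778, GRCm38.p6). It had 358, 397 and 424 CPM across PAC replicates 1, 2 and 3, then 683, 711 and 761 across RS and 1123, 979 and 1043 across ES. Each stage lay wholly above the one before it. Mean CPM rose between PAC (393 ± 32.8, SD, n = 3) and RS (718 ± 39.5), or by 0.87 on the log2 scale (SE 0.12, adjusted p = 7.71e-05 by the quasi-likelihood test of edgeR, used for all adjusted p below unless named). In ES it was 1048 ± 72.1, a further rise of 0.55 (SE 0.12, adjusted p = 0.00362). From the deposited FPKM the step from RS to ES was 0.22 on the log2(FPKM + 1) scale and not past the threshold (adjusted p = 0.186, limma). The antisense gene Gm38325 and 2 small RNA genes lie within Adcy10 on the other strand in GENCODE M21, and since the strand setting of the counting is not stated their reads cannot be told apart. The processed pseudogene Gm18186 lies within Adcy10 on the same strand, where no strand setting separates reads.

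The transmembrane adenylyl cyclases, which answer to G proteins, were far lower. Of these 9 genes 7 were tested: 1 rose and 3 fell in RS against PAC, 2 rose and none fell in ES against RS, and 2 rose and 3 fell in ES against PAC. The most abundant were Adcy1, at 9.88 ± 0.529 CPM (SD, n = 3) in PAC, 3.59 ± 0.551 in RS and 3.57 ± 1.16 in ES, and Adcy6, at 7.75 ± 2.04, 2.70 ± 0.316 and 2.85 ± 0.924. Both fell in RS (log2 fold changes -1.46 and -1.52, adjusted p = 0.000244 and 0.000409). Adcy9 fell in RS (-2.34, adjusted p = 4.24e-05) and rose in ES (2.52, adjusted p = 6.61e-05), from 2.59 to 0.507 and 2.94 CPM. Adcy2 rose in ES against PAC from 0.736 to 3.55 CPM (2.26, adjusted p = 0.000139).

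RefSeq promoter windows of GRCm38.p6, from 250 bases before to 50 after a start site, matched 7 of the 9 genes, in 8 windows. Those of the cyclase and the exchanger are shown because the genes are partners whose levels parted between stages. Capitals mark AACNGNC, a core recognised by MYB-family proteins, on either strand. The letters AACTGTC stand in both.
Adcy10 chr1:165484933-165485232 (plus strand): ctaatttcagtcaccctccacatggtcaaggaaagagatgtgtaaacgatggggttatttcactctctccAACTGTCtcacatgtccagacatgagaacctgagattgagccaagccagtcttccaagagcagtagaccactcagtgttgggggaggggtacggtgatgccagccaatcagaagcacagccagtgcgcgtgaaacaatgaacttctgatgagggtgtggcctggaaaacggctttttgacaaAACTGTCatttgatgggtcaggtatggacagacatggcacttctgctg
Slc9c1 chr16:45535016-45535315 (plus strand): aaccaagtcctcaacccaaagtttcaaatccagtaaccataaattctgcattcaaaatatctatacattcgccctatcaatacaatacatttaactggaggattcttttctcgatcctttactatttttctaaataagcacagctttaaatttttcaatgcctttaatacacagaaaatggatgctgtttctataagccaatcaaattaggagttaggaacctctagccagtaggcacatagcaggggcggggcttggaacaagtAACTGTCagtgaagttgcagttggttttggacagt
In Adcy10 a match began 2 bases after the start site and another 180 before it, and in Slc9c1 the match began 15 bases after it. The motif, chosen after these windows were read, stood in 4 of the 8 windows and in 32.3% of 20929 windows of protein-coding genes. The full cAMP response element TGACGTCA stood in none of the 8 and in 2.27% of all windows. A match describes the letters and not a bound site.

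Slc9c1, the sperm sodium-proton exchanger, is on chromosome 16 (45535266 to 45607001). It had 445, 385 and 452 CPM across PAC replicates 1, 2 and 3, then 365, 373 and 387 across RS and 147, 197 and 178 across ES. PAC and RS overlapped, and all ES libraries lay below both. In RS against PAC the log2 fold change was -0.19 (SE 0.14, adjusted p = 0.226), and 0.12 with upper-quartile factors. Slc9c1 then fell by 1.11 on the log2 scale in ES against RS (SE 0.14, adjusted p = 7.35e-05), from 375 ± 11.1 CPM (SD, n = 3) to 174 ± 25.3.

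Measured within each library, the ratio of the exchanger to the cyclase was lower at each later stage. The log2 ratio of FPKM of Slc9c1 to Adcy10 was 0.77, 0.43 and 0.52 across PAC replicates 1, 2 and 3, then -0.43, -0.47 and -0.51 across RS and -2.44, -1.84 and -2.12 across ES. The ratio is independent of library scaling, and the 3 stages did not overlap. The difference was -1.04 in RS against PAC and -1.66 in ES against RS. With 3 libraries against 3 the smallest p of the two-sided exact permutation test is 0.1, which both reached (adjusted p = 0.117 over 21 comparisons of shares and ratios), so no such comparison could pass the threshold.

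Among 25 other genes of sodium, proton and bicarbonate transport 19 were tested. In RS against PAC 5 rose and 8 fell, in ES against RS 3 rose and 5 fell, and in ES against PAC 3 rose and 5 fell. Car2, the carbonic anhydrase that interconverts carbon dioxide and bicarbonate, was the most abundant, and rose from a mean CPM of 16.9 ± 4.08 (SD, n = 3) through 132 ± 5.75 to 640 ± 92.2 over PAC, RS and ES (log2 fold change 5.24 in ES against PAC, adjusted p = 2.22e-08). Slc26a8, an anion transporter of male germ cells, fell from 221 ± 38.3 in PAC to 126 ± 4.47 in RS (-0.82, adjusted p = 0.00282) and had 102 ± 27.2 in ES. Slc9a2, another sodium-proton exchanger, fell from 1.97 to 0.212 CPM in RS (-3.20, adjusted p = 7.14e-05) and rose to 4.56 in ES (4.40, adjusted p = 2e-05). Its means had the order of the Sertoli cell sums given above, lowest in RS and highest in ES. So did those of Adcy2, Adcy9, Atp2b3, Pde4d and Hvcn1, with Adcy2 nearly level between RS (0.722 CPM) and PAC (0.736). The part of Sertoli cell RNA in these genes was not tested.

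Atp1a4, the sodium pump subunit made in male germ cells and needed for sperm motility, is on chromosome 1 (172223508 to 172258424). It had 132, 187 and 157 CPM across PAC replicates 1, 2 and 3, then 675, 710 and 755 across RS and 1602, 1077 and 1101 across ES. No libraries of different stages overlapped, and ES replicate 1 stood above the other ES libraries. It rose 4.49-fold from PAC to RS (log2 fold change 2.17, SE 0.19, adjusted p = 2.13e-06) and 1.77-fold from RS to ES (0.82, SE 0.18, adjusted p = 0.00304). From FPKM with no filter the difference between ES and RS was 0.46 (adjusted p = 0.0512, limma). The antisense gene Gm37950 lies within Atp1a4, with the same limit on strand.

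The sodium pump also needs a beta subunit. Atp1b3 had 175 ± 12.5 CPM (SD, n = 3) in PAC, 605 ± 72.5 in RS and 2073 ± 374 in ES, rising at both steps (log2 fold changes 1.79 and 1.78, adjusted p = 2.9e-06 and 9.43e-06). The regulator Fxyd1 fell from 3.88 to 0.250 CPM in RS (-3.94, adjusted p = 1.08e-06) and had 0.876 in ES. Its means had the order of the Leydig cell sums given above, as did those of other genes named here, such as Atp2b4, Atp2a2 and Akap8. The part of Leydig cell RNA in these genes was not tested.

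Atp2b4, the plasma membrane calcium pump of the sperm tail, is on chromosome 1 (133702674 to 133801059). It had 66.5, 89.9 and 186 CPM across PAC replicates 1, 2 and 3, then 28.3, 26.0 and 34.8 across RS and 20.5, 45.7 and 64.7 across ES. PAC replicate 3 stood above all other libraries, and the ES libraries spanned the RS values. Atp2b4 fell from PAC to RS (log2 fold change -1.94, SE 0.46, adjusted p = 0.00406). In ES against RS the value was 0.56 (SE 0.45, adjusted p = 0.34). In ES against PAC it was lower by the test (-1.39, adjusted p = 0.0223), a call lost when PAC replicate 3 (-0.86), ES replicate 1 (-1.04) or ES replicate 2 (-1.42) was left out, in a fit of the 2 cell types alone (-1.17) and with no filter (-1.41). Mir6903 and Gm37368 lie within Atp2b4 on the same strand in GENCODE M21, where no strand setting separates reads.

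FPKM are scaled per length, so genes are set beside each other in FPKM here, though the lengths used are not given. Atp2b4 held most of the FPKM of the 4 plasma membrane calcium pumps: 94.8%, 96.4% and 98.5% across PAC replicates 1, 2 and 3, then 95.6%, 96.3% and 96.4% across RS and 82.9%, 91.6% and 90.9% across ES. The ES libraries lay below all others, with a mean difference from RS of -7.65 percentage points (exact permutation p = 0.1, adjusted p = 0.117). Of the 12 other calcium pumps and exchangers 10 were tested. In RS against PAC 2 rose and 4 fell, in ES against RS 4 rose and none fell, and in ES against PAC 3 rose and 3 fell. The endoplasmic reticulum pump Atp2a2 fell in RS, from 77.5 ± 25.4 to 19.3 ± 1.07 CPM (SD, n = 3) (-2.00, adjusted p = 0.000207), with 27.5 ± 11.2 in ES. The Golgi pump Atp2c1 rose from 18.5 ± 1.49 to 36.8 ± 1.51 and 57.9 ± 3.89 CPM (0.99 and 0.66, adjusted p = 4.1e-05 and 0.00147). Atp2b2 rose from 0.0537 to 0.900 CPM in ES against PAC (adjusted p = 0.000659). Its PAC mean is below the floor of 3 counts there (0.0933 to 0.11 CPM), so the size of this rise is not well measured. Atp2b3 had no counts in RS. In PAC it had 0.746, 0.658 and 0.108 CPM across replicates 1, 2 and 3, and in ES 0.378, 0.533 and 0.804. The means of 0.504 in PAC and 0.572 in ES were at least 5.82-fold and 6.60-fold above the mean RS floor of 3 counts (0.0866 CPM). This bound is for the means only: PAC replicate 3 was itself at its floor of 0.108 CPM.

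Kcnu1, the pore of the SLO3 potassium channel, is on chromosome 8 (25848627 to 25937943). It had 17.1, 32.9 and 49.4 CPM across PAC replicates 1, 2 and 3, then 72.2, 66.3 and 63.6 across RS and 32.1, 48.5 and 72.5 across ES. RS lay above PAC without overlap, and ES overlapped both. Kcnu1 rose in RS against PAC (log2 fold change 1.02, SE 0.37, adjusted p = 0.0303). This call was lost with no filter (1.04) and without PAC replicate 1 (0.71), PAC replicate 2 (1.02), RS replicate 1 (0.98), RS replicate 2 (1.05) or RS replicate 3 (1.07), with adjusted p between 0.051 and 0.0744. ES against RS gave -0.40 (adjusted p = 0.402) and ES against PAC 0.62 (adjusted p = 0.164). The latter passed the threshold with upper-quartile factors (0.94), without PAC replicate 3 (1.01) and on the log2(FPKM + 1) and log2(FPKM + 0.1) scales (0.89 and 0.96).

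Lrrc52, the leucine-rich repeat subunit that shifts SLO3 opening, is on chromosome 1 (167445675 to 167466780). It had 5.82, 8.66 and 9.05 CPM across PAC replicates 1, 2 and 3, then 25.5, 22.7 and 20.2 across RS and 9.73, 11.2 and 13.2 across ES. All RS libraries stood above all others. Lrrc52 rose 2.91-fold in RS (log2 fold change 1.54, SE 0.20, adjusted p = 4.4e-05) and was 1.999-fold lower in ES than in RS (log2 SE 0.20, adjusted p = 0.00177). ES stayed above PAC by 0.54 (adjusted p = 0.0344), a call lost without PAC replicate 1 (0.34) or 2 (0.60), RS replicate 1 or 2 (0.53 each), ES replicate 2 (0.55) or 3 (0.41), with no filter (0.51) and from FPKM (0.25).

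The log2 FPKM ratio of Lrrc52 to Kcnu1 was 0.01, -0.38 and -0.92 across PAC replicates 1, 2 and 3, then -0.14, -0.22 and -0.32 across RS and -1.22, -0.96 and -1.18 across ES. On this scale the ES libraries lay below all others. From CPM the same ratio was -1.55, -1.93 and -2.45 in the PAC libraries, -1.50 to -1.65 in RS and -1.72, -2.11 and -2.45 in ES, so that ES lay below RS but overlapped PAC, with differences of -0.53 from RS and -0.12 from PAC. From FPKM the difference was -0.69 in ES against PAC, -0.89 in ES against RS (exact permutation p = 0.1, adjusted p = 0.117) and 0.20 in RS against PAC (exact permutation p = 0.6), the latter -0.04 without PAC replicate 3. In PAC the SD of Kcnu1 was 16.2 of a mean of 33.1 CPM, and that of Lrrc52 1.76 of 7.84.

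Relatives of the channel and its subunit, with other potassium channels, made a list of 14 genes, of which 9 were tested. In RS against PAC 5 rose and 3 fell, and in each comparison of ES 2 rose and 2 fell. Kcnj10 and Kcnk5, the most abundant of the list, had the RS peak seen for Lrrc52: Kcnj10 had 30.8 ± 1.94 CPM (SD, n = 3) in PAC, 68.6 ± 4.83 in RS and 33.2 ± 4.53 in ES, and Kcnk5 had 7.10 ± 0.516, 21.8 ± 3.25 and 6.80 ± 1.45. Both rose in RS (1.16 and 1.62, adjusted p = 2.51e-05 and 1.88e-05) and fell in ES (-1.05 and -1.68, adjusted p = 0.000123 and 4.11e-05). Lrrc26, a paralog of Lrrc52 that partners the related channel Kcnma1, rose from 0.206 CPM in PAC to 1.33 in RS and 2.59 in ES (3.63 in ES against PAC, adjusted p = 3.57e-06). Kcnj2 fell from 0.740 CPM in PAC to 0.0191 in RS (adjusted p = 0.0001), where its mean is below the floor of 3 counts (0.0819 to 0.0904 CPM).

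Hvcn1 is on chromosome 5 (122206805 to 122242297). It had 4, 7 and 8 counts across PAC replicates 1, 2 and 3, then 4, 1 and 0 across RS and 4, 10 and 7 across ES, or at most 0.444 CPM. The RS libraries lay below all PAC and ES libraries in CPM, and PAC and ES overlapped. Replicate 1 of each stage had 4 counts, so RS replicate 1 (0.121 CPM) lay below PAC replicate 1 (0.124) and ES replicate 1 (0.216) through library scaling alone. These counts are near the floor of 3 counts, which is 0.0819 to 0.162 CPM in these libraries, and no test of Hvcn1 was made. Tctn1 lies over the end of Hvcn1 on the opposite strand in GENCODE M21, and the strand setting of the counting is not stated, so reads of this pair cannot be told apart.

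**Figure D2:**
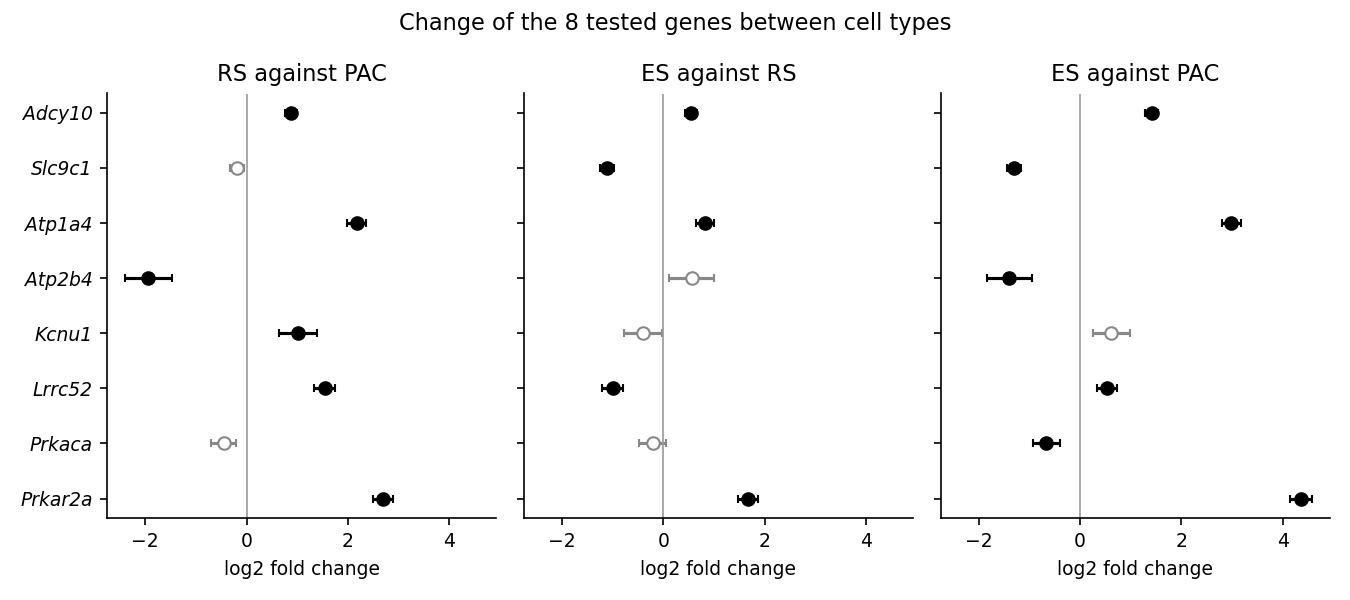
Log2 fold change (horizontal axis) of the 8 tested genes in the 3 comparisons, with bars of 1 SE. Filled points passed an adjusted p of 0.05 and open points did not. Prkar2a has the highest value in each comparison, up to 4.36 in ES against PAC.

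Prkar2a, the type II alpha regulatory subunit that docks PKA to anchoring proteins of the tail, is on chromosome 9 (108692143 to 108750444). It had 21.6, 35.6 and 29.2 CPM across PAC replicates 1, 2 and 3, then 172, 192 and 195 across RS and 664, 467 and 641 across ES. The stages did not overlap. It rose 6.48-fold from PAC to RS (log2 fold change 2.69, SE 0.20, adjusted p = 8.99e-07) and 3.17-fold from RS to ES (1.67, SE 0.19, adjusted p = 4.66e-05), so that ES stood 20.5-fold above PAC (4.36, SE 0.22, adjusted p = 6.2e-08). Over all 19 alternatives the log2 fold change in ES against PAC stayed between 3.92 and 4.67. The small nuclear RNA gene Gm24259 lies within Prkar2a on the opposite strand in GENCODE M21, with the same limit on strand.

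Prkaca, the alpha catalytic subunit, is on chromosome 8 (83972978 to 83996444). It had 24.4, 26.1 and 40.2 CPM in PAC replicates 1, 2 and 3, 22.1 in each RS library, and 11.8, 21.7 and 23.8 in ES. RS lay just below PAC, and ES replicates 2 and 3 sat beside RS with replicate 1 below. The log2 fold change was -0.45 (SE 0.25, adjusted p = 0.13) in RS against PAC, which passed the threshold without ES replicate 1 at the same -0.45 (SE 0.18, adjusted p = 0.0424). It was -0.21 (SE 0.26, adjusted p = 0.535) in ES against RS, or 0.04 without ES replicate 1. In ES against PAC Prkaca was lower (-0.66, SE 0.26, adjusted p = 0.0414). That call was lost without PAC replicate 3 (-0.42), without any 1 of the RS libraries (-0.66), without ES replicate 1 (-0.41) or 2 (-0.76), and with DESeq2's size factors (-0.58), upper-quartile factors (-0.35), the stricter filter (-0.56) or the 2 cell types alone (-0.45).

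RefSeq gives Prkaca 2 start sites, 3905 bases apart, and the sperm form of the protein is known to begin with an alternative first exon. Their windows are shown with that of Prkar2a because the PKA subunits parted in level while only 1 Prkaca row was counted, so reads of the starts cannot be told apart. Capitals mark TGACG, a shorter form of the cAMP response element, and AACNGNC, both strands; the 2 motifs do not overlap in these windows.
Prkaca upstream start chr8:83972728-83973027 (plus strand): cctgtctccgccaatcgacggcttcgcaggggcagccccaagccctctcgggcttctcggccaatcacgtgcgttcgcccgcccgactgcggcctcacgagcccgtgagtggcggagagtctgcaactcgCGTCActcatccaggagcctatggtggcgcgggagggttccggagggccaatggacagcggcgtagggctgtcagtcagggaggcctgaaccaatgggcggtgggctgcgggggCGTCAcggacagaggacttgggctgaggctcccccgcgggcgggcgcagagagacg
Prkaca downstream start chr8:83976633-83976932 (plus strand): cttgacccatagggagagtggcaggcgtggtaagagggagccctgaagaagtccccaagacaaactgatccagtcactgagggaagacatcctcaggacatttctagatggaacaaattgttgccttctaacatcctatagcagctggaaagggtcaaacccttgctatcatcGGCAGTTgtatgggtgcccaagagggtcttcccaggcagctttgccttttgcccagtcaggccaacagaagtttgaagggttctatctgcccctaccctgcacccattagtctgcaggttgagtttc
Prkar2a chr9:108691893-108692192 (plus strand): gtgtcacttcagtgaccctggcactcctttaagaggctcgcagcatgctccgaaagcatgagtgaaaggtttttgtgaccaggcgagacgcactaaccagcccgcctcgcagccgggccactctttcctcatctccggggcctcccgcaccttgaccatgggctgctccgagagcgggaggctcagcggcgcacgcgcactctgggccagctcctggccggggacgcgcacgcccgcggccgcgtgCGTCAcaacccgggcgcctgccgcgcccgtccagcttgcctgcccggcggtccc
The upstream Prkaca window was 69.7% G and C and held TGACG 120 and 6 bases before the start, with CCAAT at 4 places. The downstream window was 51.3% G and C and held neither of these, but AACNGNC 77 bases before the start. Prkar2a had TGACG 4 bases before its start in a window of 69.0% G and C. TGACG stood in 3 of the 8 windows of these genes and in 23.8% of all windows, CCAAT in 3 and in 38.2%.

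The makeup of the PKA regulatory subunits differed in every library of one stage from every library of the next. Prkar2a held 9.58%, 16.7% and 14.4% of the summed FPKM of the 4 regulatory genes across PAC replicates 1, 2 and 3, then 45.7%, 46.7% and 47.8% across RS and 81.1%, 74.9% and 80.9% across ES. The shares of the stages did not overlap, and the exact permutation p of each comparison was 0.1 (adjusted p = 0.117). Prkar1a, the type I alpha subunit, led in PAC with 40.3 ± 2.93 FPKM (SD, n = 3) against 7.60 ± 2.09 for Prkar2a, was 43.4 ± 0.973 against 50.9 ± 3.08 in RS, and 22.9 ± 3.29 against 128 ± 20.003 in ES. In CPM Prkar1a did not pass the test in RS against PAC (0.04, adjusted p = 0.745) and fell in ES against RS (-0.59, adjusted p = 0.0018). Prkar1b had 4.28, 10.9 and 8.36 FPKM and Prkar2b 3.90, 3.76 and 2.43 in PAC, RS and ES.

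Prkaca held 91.4% to 94.4% of the FPKM of the catalytic pair with Prkacb in PAC, 95.9% to 97.8% in RS and 87.9% to 93.2% in ES. The log2 FPKM ratio of Prkaca to Prkar2a was 1.01, 0.37 and 1.29 across PAC replicates 1, 2 and 3, then -2.13, -2.29 and -2.31 across RS and -4.99, -3.60 and -3.92 across ES. In FPKM the catalytic gene was thus above the regulatory gene in every PAC library and below it in every RS and ES library. In CPM, which is not per length, the ratio was 0.18, -0.45 and 0.46 across PAC replicates 1, 2 and 3. It was negative in every RS and ES library. From FPKM the difference was -3.14 in RS against PAC and -1.93 in ES against RS (exact permutation p = 0.1 each, adjusted p = 0.117).

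**Figure D3:**
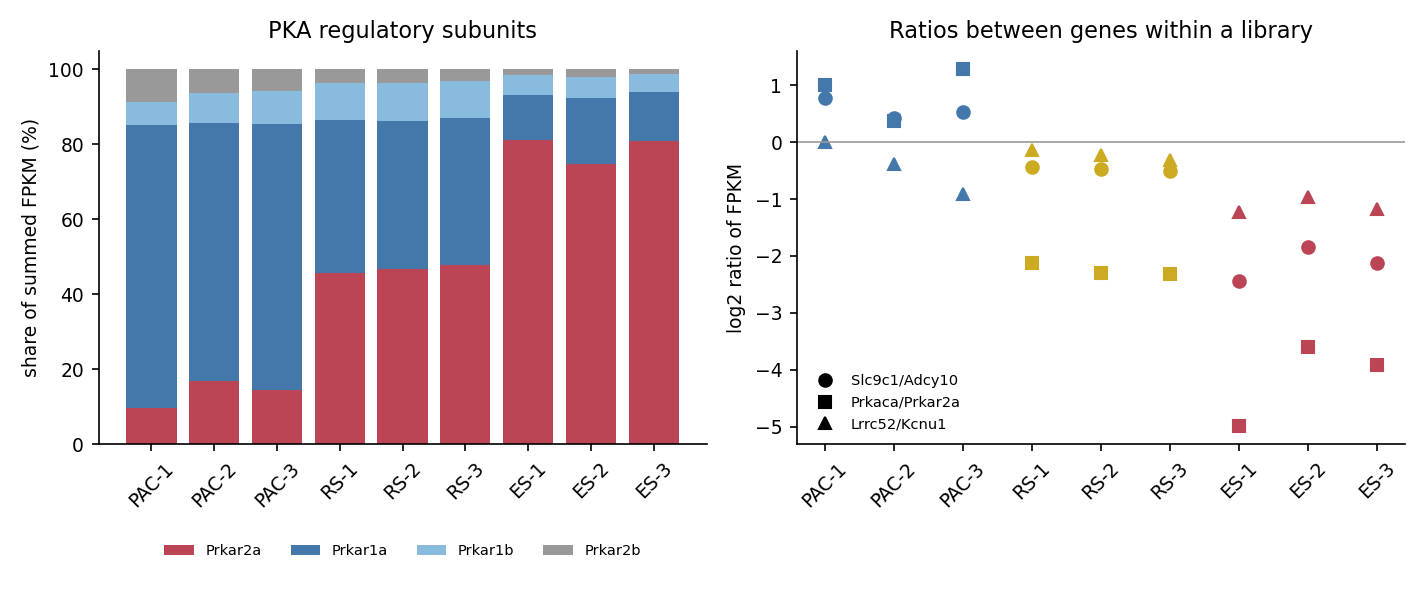
Left, share of the summed FPKM of the 4 PKA regulatory subunit genes (vertical axis, percent) in each library. Right, log2 ratio of FPKM within each library for 3 gene pairs, with stages by colour (PAC blue, RS yellow, ES red). Prkar2a goes from 9.58% to 16.7% of the regulatory FPKM in PAC to 74.9% to 81.1% in ES.

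Of 7 other PKA subunit and inhibitor genes, all tested, 3 rose and 1 fell in RS against PAC, 2 rose and 3 fell in ES against RS, and 2 rose and 1 fell in ES against PAC. Pkib, a PKA inhibitor peptide gene, was the most abundant, and rose through PAC, RS and ES (78.5 ± 12.8, 367 ± 17.6 and 709 ± 333 CPM, SD, n = 3) (2.22 and 0.95, adjusted p = 4.21e-05 and 0.0134). Its relative Pkia rose in RS from 1.74 to 4.65 CPM (1.42, adjusted p = 0.00063) and fell to 1.76 in ES (-1.39, adjusted p = 0.00157).

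The anchoring proteins that hold regulatory subunits in place, with the RII-like docking proteins of the fibrous sheath, were read as a list of 17 genes. Of these 16 were tested: 9 rose and 3 fell in RS against PAC, 7 rose and 2 fell in ES against RS, and 8 rose and 3 fell in ES against PAC, with medians of 0.88, 0.40 and 1.0. The shares over all features were 38.2% and 34.2%, 24.5% and 22.1%, and 30.6% and 33.7% in the same order. Akap4, the main fibrous sheath protein gene, rose at both steps (358 ± 131, 1781 ± 171 and 5991 ± 1129 CPM, SD, n = 3) (4.07 in ES against PAC, adjusted p = 8.48e-07). Akap12 had 313 ± 166, 507 ± 43.3 and 2356 ± 919 CPM and rose in ES against RS (2.22, adjusted p = 0.00145). Akap8, a nuclear anchoring protein gene, fell in RS from 39.2 to 4.62 CPM (-3.08, adjusted p = 2.77e-07).

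Phosphodiesterases break down cyclic nucleotides. Of 16 genes 13 were tested, to be set beside the shares over all features given above: 4 rose and 5 fell in RS against PAC, 2 rose and 3 fell in ES against RS, and 3 rose and 4 fell in ES against PAC. Pde1c and Pde1a, calcium-calmodulin-dependent forms, were the most abundant. Pde1c had 582 ± 47.7 CPM (SD, n = 3) in PAC, 424 ± 11.6 in RS and 506 ± 34.9 in ES, and fell in RS (-0.46, adjusted p = 0.00509). Pde1a rose in RS from 151 ± 19.6 to 507 ± 18.7 (1.75, adjusted p = 1.5e-05), with 414 ± 130 in ES. Pde10a fell in RS from 61.9 to 17.4 CPM (-1.83, adjusted p = 1.73e-05), Pde4d rose in ES against RS from 0.590 to 2.19 (1.89, adjusted p = 0.00116), and Pde1b rose in ES against PAC from 3.96 to 13.5 (1.77, adjusted p = 4.03e-05).

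Set beside each other per length, the 9 genes changed order between stages. In PAC Slc9c1 led with 118 ± 7.56 FPKM (SD, n = 3), then Adcy10 with 79.6 ± 8.27 and Atp1a4 with 49.4 ± 10.02, none overlapping. Atp2b4, Prkaca, Kcnu1, Prkar2a and Lrrc52 followed between 5.21 and 23.2 FPKM, each overlapping the next. In RS Atp1a4 led with 229 ± 10.8, then Adcy10 with 149 ± 8.14, Slc9c1 with 108 ± 2.86 and Prkar2a with 50.9 ± 3.08. Kcnu1 (24.2 to 27.0 FPKM) and Lrrc52 (19.3 to 24.6) overlapped, and Prkaca (10.7 to 10.8) and Atp2b4 (3.38 to 4.57) came below. In ES Atp1a4 led with 316 ± 37.1, then Adcy10 with 174 ± 14.2, Prkar2a with 128 ± 20.003, Slc9c1 with 40.4 ± 9.70 and Kcnu1 with 19.1 ± 4.73, none overlapping, while Lrrc52, Prkaca and Atp2b4 overlapped in turn between 1.85 and 10.8. Among protein-coding genes with FPKM above 0, Atp1a4 ranked 313 of 18227 in ES and Hvcn1 14666.

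As a share of the summed FPKM of the 9 genes, Slc9c1 went from 39.6% ± 4.93 (SD, n = 3) in PAC to 17.99% ± 0.176 in RS and 5.82% ± 1.55 in ES. Atp1a4 went from 16.4% ± 2.85 to 38.2% ± 0.468 and 45.3% ± 5.25, and Prkar2a from 2.51% ± 0.591 to 8.49% ± 0.322 and 18.2% ± 2.01. The share of Adcy10 was 26.5% ± 0.410, 24.9% ± 0.484 and 24.9% ± 1.85, with overlapping libraries in RS and ES.

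**Figure D4:**
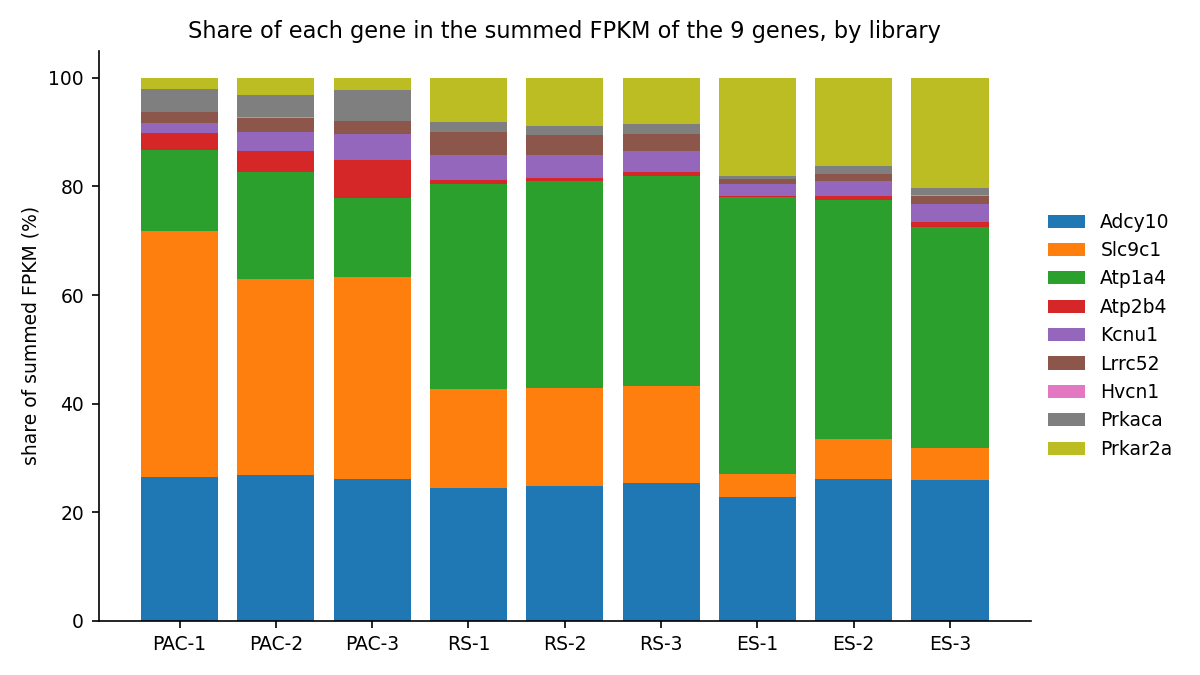
Share of each gene in the summed FPKM of the 9 genes (vertical axis, percent), by library. Slc9c1 shrinks and Atp1a4 and Prkar2a grow from PAC to ES, while Adcy10 lies between 22.8% and 26.8% in every library.

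For each tested gene the 2 protein-coding genes of most similar pattern were found among 9431 with a mean of at least 5 CPM, by Pearson correlation of log2(CPM + 0.5) over the 9 libraries. The libraries fall into 3 stages and are shared by all genes, so the values are descriptions. Prkar2a lay nearest to Otub2 (r = 0.999), a deubiquitinase gene, and Spatc1 (0.999), and Otub2 was also near Adcy10 (0.997), behind Jag1 (0.998). Atp1a4 lay nearest to Hspa1l (0.999), the heat shock protein gene of spermatids, and 1700080O16Rik (0.999), Slc9c1 to the organic anion transporter gene Slco6c1 (0.998) and Ivns1abp (0.996), and Lrrc52 to Slc7a14 (0.998) and Pdilt (0.995), a testis chaperone gene. Atp2b4 lay nearest to Pnpla7 (0.998) and the ciliary transport gene Ift140 (0.996), Prkaca to Cnot6 (0.985) and Ccdc62 (0.984), and Kcnu1 to Tnrc18 (0.99) and Sptbn1 (0.984).

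Atp2b4, Kcnu1, Lrrc52 and Prkaca had the same order of libraries within stages: replicate 3 was highest and replicate 1 lowest in PAC and again in ES for these 4 genes. Over all tested features the deviations of libraries from their stage means correlated at 0.273 between PAC and ES replicates 3 and at 0.185 between PAC and ES replicates 1. ES replicate 1 also had the lowest TMM factor, 0.758 against 0.923 to 1.1 in the others. The part of these library differences in the results of the 4 genes was not tested.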

How the data were processed

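Total RNA depleted of ribosomal RNA was sequenced in strand-marked libraries, per the labels' protocols. HISAT2, StringTie and GRCm38.p6 are named, with no tool versions, per the submitters' processing notes. The authors deposited estimated counts per feature (18.85% of values are not whole, rounded here) and FPKM, whose lengths and totals are not given. Symbols came from RefSeq genes of GRCm38.p6 and matched 21726 of 21877 genes. 

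Features passing edgeR's filterByExpr (minimum count 10) were tested over all 9 libraries with the quasi-likelihood test (edgeR 4.0.16, robust, TMM, two-sided), adjusted by Benjamini-Hochberg and called below 0.05. It was tested on simulated data. limma 3.58.1, DESeq2 1.42.0, R 4.3.3 and Python 3.11.15 were used. Depth was 22910156 to 33801617 counts per library; floors of 3 counts cover counting error only.

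The genes and lists were chosen with earlier results of these data known. Named genes are the 9, the 2 most abundant of each list, the largest called change without overlap per list and comparison, and isoform relatives. Some genes that this rule names, and the counts and shares that need them, are not reported here. Alternatives were other scalings, tests, filters, FPKM with pseudocounts of 1 and 0.1, a replicate block and leaving out each library.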

Additional observations from a re-analysis of the deposited data

How the results depend on the processing

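The 24 log2 fold changes of the 8 tested genes were recomputed under 19 alternatives. All kept their direction except Slc9c1 in RS against PAC with upper-quartile factors (0.12) and Prkaca in ES against RS without ES replicate 1 (0.04, in a range of -0.4 to 0.04 over libraries left out). The cause was not tested. Adcy10, Atp1a4, Atp2b4, Lrrc52 and Prkar2a in RS against PAC, Slc9c1, Lrrc52 and Prkar2a in ES against RS, and Adcy10, Slc9c1, Atp1a4 and Prkar2a in ES against PAC passed the threshold under every alternative run. The number of genes that rose in ES against RS was 1 from FPKM with no filter, and the number that fell in ES against PAC was 1 in a fit of the 2 cell types alone. Leaving out each library in turn gave 4 to 5 higher and 1 to 2 lower genes in RS against PAC, 3 to 3 and 2 to 2 in ES against RS, and 3 to 5 and 1 to 3 in ES against PAC. The Atp2b4 share in RS against PAC (-1.32 to 0.547 percentage points) and the Lrrc52 to Kcnu1 ratio there (-0.04 to 0.42) changed sign without PAC replicate 3 (0.547 and -0.04). With CPM in place of FPKM no difference between stages in a share or ratio changed sign, but the Lrrc52 to Kcnu1 ratio differed by -0.12 in place of -0.69 in ES against PAC, where the libraries then overlapped. Upper-quartile factors moved the median of all features by 0.31 in RS against PAC and 0.3 in ES against PAC, DESeq2's size factors by 0.14 in ES against RS, and FPKM by -0.19 there with a pseudocount of 1 and -0.33 with 0.1; changes of individual genes are relative to these shifts.

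Replicate numbers are shared by the stages, and the labels do not say whether they pair the libraries. Deviations of same-numbered libraries correlated between -0.04 and 0.273, and those of differently numbered libraries between -0.254 and 0.094. These values do not settle whether the libraries are paired. With the replicate block the counts of higher and lower genes were those without it in all 3 comparisons (5 and 1, 3 and 2, 4 and 3). Hvcn1 alone among the 9 genes had too few counts to test.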
